A study of Rattus norvegicus with 3 samples.

Results

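Classical D1 medium spiny neurons of the rat nucleus accumbens were taken as 675 of 10806 nuclei, 246 from urolithin A rats, 215 from high anxiety rats and 214 from low anxiety rats. Outbred Wistar rats had been classed by the elevated plus maze and by open field tests with an unfamiliar object, and single-nucleus RNA libraries were made from accumbens punches at 16 weeks of age. The urolithin A group consisted of high anxiety rats given urolithin A, which gut bacteria make from ellagitannins of the diet, for 2 months, and the high anxiety and low anxiety groups are described with no such treatment. Each group had 1 library, and each library pooled 5 hemispheres, so no value can be assigned to an animal. A comparison between groups is therefore a comparison of 2 libraries, with no test, and its 95% intervals cover counting error only.

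Medium spiny neurons are the GABAergic projection neurons of the striatum. Those that express the dopamine receptor Drd1 couple it to stimulatory G proteins and cyclic AMP, make the opioid precursor Pdyn, and form the direct pathway, which in the accumbens runs to the ventral mesencephalon and in part to the ventral pallidum. Those with Drd2 express Adora2a and Penk and project mainly to the ventral pallidum.

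The members were chosen by their own UMI counts of 20 marker genes. A nucleus was a member if it held at least 20 unique molecular identifiers (UMIs) of the medium spiny neuron genes Ppp1r1b, Bcl11b, Pde10a, Rgs9 and Rarb. It also needed at least 3 UMIs of the D1 genes Drd1, Ebf1, Pdyn and Isl1, and at least 3 times as many as of the D2 genes Drd2, Adora2a, Penk and Gpr6. It could hold at most 1 UMI of Drd3, Htr4, Nmb and Rasgrf2, and at most 1 of Casz1, Hmcn1 and Otof. Tac1, which the rule also lists, was not analysed here. The D1 genes passed 522, 540 and 485 medium spiny nuclei over the D2 genes in urolithin A, high anxiety and low anxiety. The limit on Drd3, Htr4, Nmb and Rasgrf2 then took away 241, 265 and 230 of these, and the limit on Casz1, Hmcn1 and Otof another 35, 60 and 41.

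Membership rests on few UMIs for part of the nuclei. In urolithin A, high anxiety and low anxiety, 23, 17 and 16 members held exactly 3 UMIs of the D1 genes, while 17, 19 and 15 nuclei that met every other limit held 2. On the striatal genes, 44, 16 and 38 members had 20 to 24 UMIs, and 49, 27 and 41 nuclei just outside had 15 to 19. One UMI of Drd3, Htr4, Nmb or Rasgrf2 was present in 78, 78 and 77 members, and 69, 46 and 42 nuclei were left out with 2. The D2 genes were at 0 UMIs in 191, 167 and 163 members.

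The members were 6.99% of the nuclei kept in urolithin A (exact binomial interval 6.17 to 7.88), 5.64% in high anxiety (4.93 to 6.42) and 6.16% in low anxiety (5.38 to 7.01). Their median depth was 7082.5, 7634 and 6413.5 UMIs per nucleus in that order, and their UMIs summed to 1796435, 1692526 and 1451475. Under stricter limits of 40 striatal and 6 D1 UMIs the shares were 1.65%, 2.49% and 1.53%. The order of the libraries by share thus differed between the limits.

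Of the rule genes, whose levels describe the choice, Drd1 stood at 241, 254 and 258 CPM (counts scaled to the UMI total of the class in its library) in urolithin A, high anxiety and low anxiety. Pdyn stood at 290.0, 252 and 286 CPM in the same order. Genes outside the rule served as the check of the label. Reln, a secreted glycoprotein given as a marker with the rule, was present in 40.7%, 50.2% and 50.9% of the D1 nuclei, with median depths as above. In oligodendrocytes, which should lack these genes and had medians of 2196, 2323.5 and 1847.5 UMIs, the shares with Reln were 0.207%, 0.634% and 0.409%. With nuclei thinned to 3000 UMIs, which left 245, 214 and 214 D1 nuclei and 166, 267 and 71 oligodendrocytes, Reln was in 22.9%, 33.6% and 37.9% of D1 nuclei, against 0 of the 166, 0 of the 267 and 1.41% of the oligodendrocytes. The counts of 0 allow shares of up to 1.81% and 1.12%. Chrm4, the muscarinic M4 receptor, was in 52.9%, 50.7% and 46.3% of D1 nuclei unthinned and in 23.7%, 23.8% and 29.4% thinned. In oligodendrocytes the Chrm4 shares were 0.310%, 0.272% and 0.545% unthinned. Thinned, they were 1.21%, 0 of 267 nuclei and 1.41%. Both D1 markers therefore stood above the share in oligodendrocytes in every library. Eya1, another D1 marker outside the rule, did not separate the 2 classes. It had 2, 1 and 2 UMIs in all D1 nuclei (1.11, 0.591 and 1.38 CPM), against 1.27, 0.694 and 3.31 CPM in oligodendrocytes.

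The members also held some transcripts of other cell types, and single nuclei carried much of them. The 10 oligodendrocyte markers summed to 237, 221 and 493 CPM in the D1 nuclei of urolithin A, high anxiety and low anxiety, with no marker at 0. In low anxiety, 1 nucleus held 266 of the 715 oligodendrocyte marker UMIs. The interneuron markers summed to 308, 122 and 326 CPM, with Slc5a7 and Lhx6 at 0 in all 3 libraries, and the highest single nucleus held 502 of 553, 185 of 206 and 430 of 473 of these UMIs. Astrocyte markers stood at 713, 768 and 799 CPM, microglial markers at 33.4, 88.0 and 26.9 CPM, and glutamatergic markers at 2.78, 30.1 and 69.6 CPM. Results below are given also without the 9, 13 and 14 nuclei that held such markers past a limit, where that changed them. The libraries shared 6 cell barcodes between urolithin A and high anxiety, 4 between urolithin A and low anxiety, and 6 between high anxiety and low anxiety.

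The D1 nuclei were first set against D2 nuclei, chosen with the roles of the D1 and D2 genes exchanged (235, 209 and 185 nuclei). Of 10390 genes tested with edgeR's quasi-likelihood test, with the library as a block and each of the 3 libraries as a replicate, 277 were higher in D1 nuclei (2.67%) and 246 lower (2.37%) at an adjusted p under 0.05. At least 2-fold were 90 of the higher and 72 of the lower genes. Without the low anxiety library the counts were 151 higher and 138 lower.

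Lingo2, a leucine-rich repeat membrane protein, had 267, 220.0 and 240 CPM in the D1 nuclei of urolithin A, high anxiety and low anxiety, against 4.98, 6.72 and 3.42 CPM in the D2 nuclei. Its log2 fold change was 5.53 (SE 0.166, edgeR adjusted p 1.08e-12). Chrm4, which couples to inhibitory G proteins and so opposes Drd1 signalling, had 104, 98.7 and 103 CPM in D1 nuclei, against 2.49, 2.69 and 6.85 CPM in D2 nuclei (log2 fold change 4.72, SE 0.226, edgeR adjusted p 2.70e-10). For both genes the lowest D1 library was far above the highest D2 library. Reln had 185, 207 and 267 CPM in D1 nuclei, against 8.72, 9.40 and 36.8 CPM in D2 nuclei (log2 fold change 3.68, SE 0.194, edgeR adjusted p 8.77e-10). The D2 level of Reln was thus highest in low anxiety, where 1 D2 nucleus held 14 of the 43 UMIs.

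Adcy2, a calcium-insensitive adenylyl cyclase, had 198, 179 and 213 CPM in D1 nuclei and 18.7, 19.5 and 18.0 CPM in D2 nuclei (log2 fold change 3.37, SE 0.125, edgeR adjusted p 8.55e-12). Il20ra, a cytokine receptor subunit, had 94.1, 114 and 58.6 CPM in D1 nuclei, against 0, 3.36 and 1.71 CPM in D2 nuclei (log2 fold change 5.72). Slc35d3, a transporter-family protein that in mice is needed for D1 receptor traffic, was higher by 4.76 on the log2 scale, and Asic4, a member of the acid-sensing channel family, by 3.17. Cntnap3, a contactin-associated adhesion protein, Dlk1, a non-canonical Notch ligand, and Adarb2, an RNA-editing family member without known editing activity, were higher by 3.64, 3.23 and 2.62. All of these passed the edgeR test with the same sign in all 3 libraries.

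**Figure D1:**
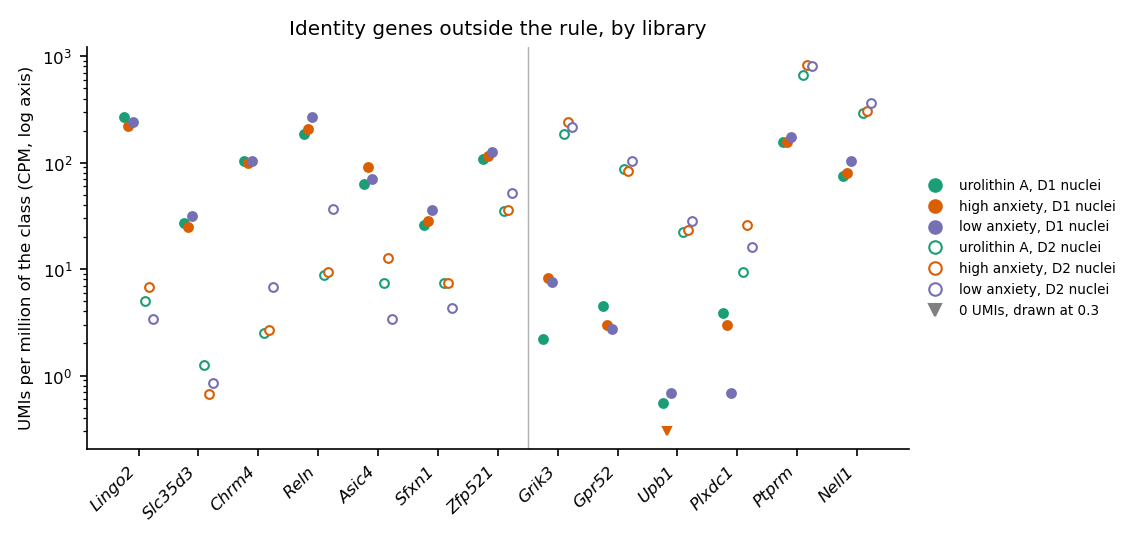
Level of identity genes outside the selection rule in D1 nuclei (filled) and D2 nuclei (open), in CPM of the class total on a log axis, 1 point per library, with 0 UMIs drawn as a triangle at 0.3. Left of the line are genes of the D1 list and right of it genes of the D2 list. The genes drawn were chosen from those that passed the edgeR test. Nrg1 of the D1 list (log2 fold change 0.30) and Gprin3 of the D2 list (-0.77) also passed and are not drawn. Col25a1 of the D2 list is not drawn either, and it passed as higher in D1 nuclei (0.74). The D1 and D2 points of each gene drawn do not overlap. Chrm4, for example, had 98.7 to 104 CPM in D1 nuclei and 2.49 to 6.85 CPM in D2 nuclei.

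The named genes that were lower in D1 nuclei included several receptors, while on the list of neuropeptide and hormone receptors 2 of 21 were higher and 2 lower, with a median of 0.02. Oprd1, the delta opioid receptor, had 2.23, 9.45 and 6.20 CPM in D1 nuclei, against 204, 218 and 195 CPM in D2 nuclei (log2 fold change -5.12, SE 0.184, edgeR adjusted p 6.48e-12). Grik3, a kainate receptor subunit, had 2.23, 8.27 and 7.58 CPM in D1 nuclei and 185, 243 and 214 CPM in D2 nuclei (log2 fold change -5.17). Gpr52, an orphan receptor that stimulates cyclic AMP, was lower by a log2 fold change of -4.69, Calcr, the calcitonin receptor, by -4.05, and P2ry1, a purinergic receptor, by -3.87. Unc5d, a netrin receptor, Gucy1a1, a subunit of the nitric oxide receptor, and Npas3, a transcription factor, had log2 fold changes of -4.08, -2.81 and -2.43. Ubash3a had 1 UMI and Upb1, a pyrimidine-breakdown enzyme, 2 UMIs in all D1 nuclei together, against 16.3 to 26.2 CPM and 22.4 to 28.2 CPM in D2 nuclei, so their fitted fold changes are not read as sizes.

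Of 12 D1 identity genes listed outside the rule, 10 were tested; 8 were higher in D1 nuclei and 0 lower, with a median log2 fold change of 2.67 beside -0.002 over all genes tested. Tshz1 (-0.03) and Mn1 (-0.15) did not pass. Of 9 tested D2 identity genes, 7 were lower and 1, Col25a1, was higher (0.74), with a median of -2.25. Oprm1, the mu opioid receptor, averaged 74.2 CPM in D1 nuclei and 67.0 CPM in D2 nuclei (log2 fold change 0.14, edgeR adjusted p 0.657). Oprk1, the receptor for dynorphin, was higher in D1 nuclei by 1.24 (edgeR adjusted p 0.0018), with means of 29.3 CPM in D1 nuclei and 12.5 CPM in D2 nuclei.

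Of 35 tested members of the signalling chain from the dopamine receptor to DARPP-32 (Ppp1r1b), beside 2.67% higher and 2.37% lower of all genes, 2 were higher in D1 nuclei, Adcy2 and the G protein subunit Gnb4 (0.68), and 2 lower, Arpp19 (-0.73), a regulator of protein phosphatase 2A, and the kinase subunit Prkar2a (-0.41). Of 12 phosphodiesterases, which break down cyclic nucleotides, 4 were higher, 2 lower and 6 did not pass. Pde9a was higher by 1.98, with means of 124 CPM in D1 nuclei and 32.3 CPM in D2 nuclei. The calmodulin-regulated Pde1a and Pde1c were higher by 1.78 and 1.03 and the cyclic AMP-specific Pde7b by 0.27, while the cyclic AMP-specific Pde4b and Pde4d were lower, at -0.90 and -0.28. Of 12 GABA genes 1 passed the test: Gad1 was lower in D1 nuclei (-0.26, edgeR adjusted p 0.0494), while Gad2 was at -0.20 (adjusted p 0.126) and Slc32a1, the vesicular GABA transporter, at 0.04 (adjusted p 0.904).

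In the trophic factor list 7 of 19 tested genes were higher in D1 nuclei and 2 lower, with a median of 0.30. Erbb4, the neuregulin receptor, averaged 344 CPM in D1 nuclei and 67.0 CPM in D2 nuclei (log2 fold change 2.38, SE 0.121, edgeR adjusted p 5.72e-10). Its ligands Nrg3 and Nrg1 were higher by 0.81 and 0.30, the GDNF co-receptor Gfra1 by 1.87, and Sorcs2, a sorting receptor, was lower (-0.92). Of 43 axon guidance genes, 5 were higher, led by Dscam (2.32) and Sema3c (1.65), and 10 lower, led by Unc5d, Ntng1 (-1.57) and Unc5c (-1.31). Of 31 cadherins, 2 were higher (Cdh4 0.84 and Pcdh20 0.70) and 5 lower, led by Pcdh15 (-1.83) and Cdh6 (-1.33).

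Among 30 genes shared by medium spiny neurons, 5 were higher in D1 nuclei and 9 lower. The transcription factor Foxp2 was higher (1.02, means 543 CPM in D1 nuclei and 269 CPM in D2 nuclei), and the transcription factor Ikzf2 (-1.40) was lower. No member passed the edgeR test among 22 sodium channel genes, 31 proteasome subunits, 16 vacuolar ATPase subunits, 21 sterol synthesis genes or 13 mitochondrial transcripts. At the share of all genes that passed (2.67% higher, 2.37% lower), lists of these sizes hold few calls or none. At an unadjusted p under 0.05, 725 of all genes were higher and 747 lower. The oligodendrocyte markers Mog (-0.82) and Mbp (-0.64) were lower in D1 nuclei; the part of such transcripts in the other differences was not tested.

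The second contrast set the members against the D1-like nuclei that held at least 3 UMIs of Drd3, Htr4, Nmb and Rasgrf2 (109, 127 and 107 nuclei). Of 10 tested D1 identity genes 2 were higher in the members and 0 lower, with a median log2 fold change of -0.17 beside -0.001 over all genes. Chrm4 was at 104, 98.7 and 103 CPM in the members and at 127, 121 and 134 CPM in the Drd3-type nuclei of urolithin A, high anxiety and low anxiety (log2 fold change -0.32, SE 0.110, edgeR adjusted p 0.135), and Lingo2 was at 0.23 (SE 0.0900, adjusted p 0.245). Of 10086 genes tested, 157 were higher in the members (1.56%) and 177 lower (1.75%), of which 36 and 36 at least 2-fold.

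Tac3, the precursor of neurokinin B, was the highest of the named genes. It had 242, 59.7 and 113 CPM in the members and 56.1, 9.56 and 32.2 CPM in the Drd3-type nuclei (log2 fold change 2.11, SE 0.152, edgeR adjusted p 1.17e-10). In each library the member level was the higher, while the level in urolithin A Drd3-type nuclei was close to that of high anxiety members. Pde1a had 556, 311 and 381 CPM in members, against 131, 163 and 157 CPM in Drd3-type nuclei (1.43, SE 0.123, edgeR adjusted p 3.86e-09), without overlap. Prkg1, the cyclic GMP-dependent kinase, had 1622, 1382 and 1319 CPM, against 695, 635 and 388 CPM (1.33). Reln was higher than in the Drd3-type nuclei by 0.94 (adjusted p 3.52e-06), the calcium buffer Calb1 by 1.10 and the transcription regulator Id4 by 1.23. Egfem1, the transcription factor Bach2, Nxph1, Itm2a, Frmpd3 and Tbc1d4 were higher by 1.27 to 1.59, and the protease Pcsk5 was higher too.

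**Figure D2:**
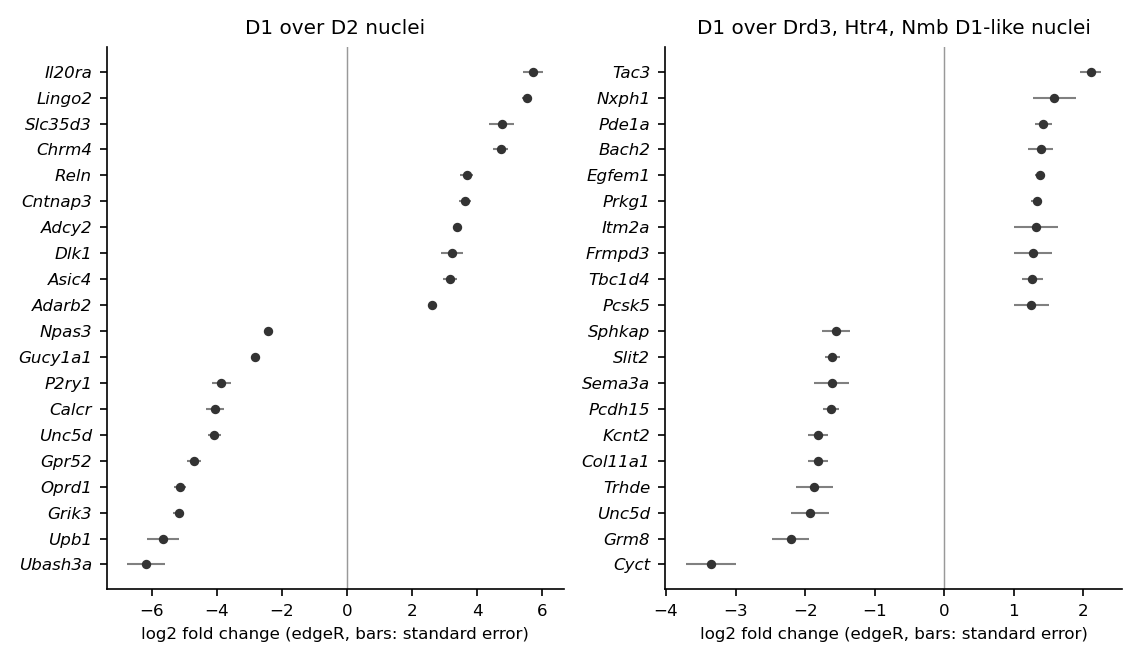
Log2 fold change (edgeR, x axis) of the 10 highest and 10 lowest named genes in D1 over D2 nuclei (left) and in D1 over Drd3-type D1-like nuclei (right), with bars for the standard error over 3 libraries. The fold changes over D2 nuclei reach 5.72 for Il20ra, those over Drd3-type nuclei 2.11 for Tac3; Ubash3a and Upb1 rest on 1 and 2 UMIs in D1 nuclei.

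Genes lower in the members included Grm8, a metabotropic glutamate receptor (-2.20), the potassium channel Kcnt2 (-1.81), the collagen Col11a1 (-1.81), the peptidase Trhde (-1.87), Cyct (-3.36) and Sphkap (-1.55). Of 44 guidance genes tested, 10 were lower, 2 were higher (Dscam and Robo2, 0.34) and the rest did not pass, with a median of -0.07. Slit2, a secreted repellent, had 52.3, 67.4 and 85.4 CPM in members, against 149, 196 and 286 CPM in Drd3-type nuclei (-1.61, SE 0.108, edgeR adjusted p 3.95e-11). Unc5d (-1.93), Sema3a (-1.62) and Sema3e were also lower. Of 31 cadherins, 5 were higher and 6 lower, among them Pcdh15 (-1.63). Of 14 striosome genes 2 were lower, Kremen1 (-0.87), a receptor for Wnt antagonists, and Rasgrp1 (-0.59), and 1, Bach2 (1.39), was higher. Npy, Sst and Slc17a7 also passed the test as higher in members, but not with the same sign in all libraries; the single nuclei above held most of their UMIs.

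Within the 675 nuclei, the genes that varied most were found by the excess of their variance over counting, (variance minus mean) over squared mean, in nuclei thinned to 3000 UMIs. Over 2867 genes the median excess was 0.151, 0.136 and 0.159 in urolithin A, high anxiety and low anxiety. Reln had 6.27, 2.54 and 4.43, among the 5 highest of the named genes when each gene was ranked by its lowest library. Apoe, an apolipoprotein made mainly by glial cells, came first with 29.1, 19.5 and 13.5. Gpc5, a cell-surface proteoglycan, followed with 5.59, 4.35 and 6.78, and 1 urolithin A nucleus alone held 46.5% of the Apoe UMIs. Nell1, Nalf1, Erbb4, Ptprg, Hs6st3, Trpc5, Spon1, Brinp3, Lin7a, Bach2, Ntrk2 and Dach1 made up the rest of the 15.

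Across nuclei, Reln counts went with those of Dach1, a transcriptional regulator, at Pearson r of 0.28, 0.36 and 0.28 over 245 nuclei of urolithin A, 214 of high anxiety and 214 of low anxiety. Nell1 and Nalf1 had r of 0.28, 0.20 and 0.29, and Nalf1 and Reln -0.21, -0.16 and -0.12. These values describe nuclei of 1 library each, at 1 depth, and the counts are sparse.

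Nuclei with at least 2 thinned Reln UMIs (Reln-high) were 25 of 245 in urolithin A (10.2%, exact binomial interval 6.71 to 14.7), 36 of 214 in high anxiety (16.8%, 12.1 to 22.5) and 36 of 214 in low anxiety. They were set against the 189, 142 and 133 nuclei with 0 (Reln-zero), leaving out those with 1. Unthinned, 40.7%, 50.2% and 50.9% of D1 nuclei held Reln, so some Reln-zero nuclei hold Reln UMIs that thinning removed. Median depths of the Reln-high nuclei were 7336, 6972 and 6867 UMIs, against 7222, 7647.5 and 6316 in the Reln-zero nuclei. Of 8136 genes tested, 79 were higher (0.971%) and 47 lower (0.578%) in Reln-high nuclei, leaving Reln itself out. Far fewer passed with a stricter nucleus filter, as given at the end.

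Nr4a1 and Egr4, activity-regulated transcription factors, had the highest fold changes of the named genes. Nr4a1 had 115, 48.8 and 77.5 CPM in the Reln-high nuclei of urolithin A, high anxiety and low anxiety, against 17.4, 15.8 and 9.08 CPM in the Reln-zero nuclei (log2 fold change 2.51, SE 0.324, edgeR adjusted p 5.6e-05). Egr4 had 62.8, 33.8 and 27.1 CPM, against 10.9, 7.02 and 9.08 CPM (2.22, SE 0.435, edgeR adjusted p 0.00643). In the Reln-high nuclei these levels rest on few UMIs, 22, 13 and 20 of Nr4a1 and 12, 9 and 7 of Egr4. For both genes each Reln-high library stood above all Reln-zero libraries. With Homer1 (0.74), a scaffold of glutamate receptors, they were the 3 of 30 tested members of the ERK and activity list that passed, and 0 were lower. The other named genes were the actin-binding Tpm1 (1.49), Dach1 (1.45), the ion channel Trpm3 (1.38), the kinase Mapk4 (1.24), Col18a1, Gpr63, the chromatin remodeller Chd7, and Fam135b (1.26 to 1.43).

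Genes shared by medium spiny neurons were higher in 7 of 29 cases and lower in 0, with a median of 0.31 beside 0.003 over all genes. Actn2, a postsynaptic actin crosslinker, was higher by 0.98 and the phosphatase Ptpn5 by 0.53. Erbb4 (1.09) and the BDNF receptor Ntrk2 (0.80) were higher, with Sorcs1 (0.50). Pde4b was higher (0.64) and Pde1a lower (-0.95).

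Among the named lower genes were the peptide precursors Tac3 and Nts. Tac3 had 41.9, 0 and 54.2 CPM in Reln-high nuclei, against 302, 87.7 and 131 CPM in Reln-zero nuclei (-2.34, SE 0.335, edgeR adjusted p 2.38e-04). With a stricter nucleus filter (1000 genes or more, mitochondrial UMIs at 1% or less) the adjusted p of Tac3 was 0.245. Nts, the neurotensin precursor, had 0, 33.8 and 7.75 CPM, against 41.3, 85.1 and 68.1 CPM (-2.11). Nxph1, a neurexin ligand, had 5.24, 0 and 11.6 CPM, against 62.3, 65.8 and 60.2 CPM (-3.41, SE 0.510), without overlap. Pcdh15 (-2.39), Dscam (-1.71), Agpat4, Camk2d, Olfm2 and Cpne4 (-1.94 to -2.14) were also lower. Thsd7b had 2 UMIs in all Reln-high nuclei together, against 21.7 to 62.3 CPM in Reln-zero nuclei. Without the nuclei that held markers of another class, Col18a1, Thsd7b, Agpat4, Camk2d and Olfm2 kept their direction with edgeR adjusted p of 0.0711 to 0.396. Sst passed the test as lower too, with most of its UMIs in 1 nucleus each of urolithin A and low anxiety. So did Npy (-4.13) and the glutamatergic marker Slc17a7 (-2.73), not with the same sign in all libraries.

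Oprm1 was used in the same way, since it marks striosomes in the dorsal striatum. At least 1 thinned UMI (Oprm1-high) was found in 46 of 245 nuclei of urolithin A (18.8%, 14.1 to 24.2), 41 of 214 of high anxiety (19.2%, 14.1 to 25.1) and 28 of 214 of low anxiety (13.1%, 8.87 to 18.4). In oligodendrocytes thinned to the same depth the shares were 1.81%, 0.749% and 1.41%. Unthinned, 31.3%, 27.9% and 23.8% of D1 nuclei held Oprm1, so some Oprm1-zero nuclei hold Oprm1 UMIs that thinning removed. Of 9092 genes tested, 101 were higher (1.11%) and 93 lower (1.02%) in Oprm1-high nuclei. With any 1 of the 3 libraries left out, 64 to 68 were higher and 59 to 62 lower, so the count fell by more than 1.5 times without low anxiety (65 and 61) or without high anxiety (64 and 59).

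Interneuron markers moved with this split. Sst (2.48) and Npy (2.12) passed the edgeR test as higher in Oprm1-high nuclei, though not with the same sign in all libraries. Npy had 9.54, 3.17 and 1506 CPM in Oprm1-high nuclei, against 247, 1.46 and 9.40 CPM in Oprm1-zero nuclei, and Sst had 25.4, 6.34 and 905 CPM, against 95.3, 5.09 and 9.40 CPM. Their high levels thus lay in the Oprm1-high nuclei of low anxiety and in the Oprm1-zero nuclei of urolithin A. The 178 Vip UMIs of high anxiety lay in an Oprm1-high nucleus. Without the nuclei that held markers of another class, 90 genes were higher and 89 lower.

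Nr4a3, another activity-regulated receptor gene, had 89.0, 72.9 and 149 CPM in Oprm1-high nuclei and 29.1, 14.6 and 12.5 CPM in Oprm1-zero nuclei (log2 fold change 2.34, SE 0.275, edgeR adjusted p 7.18e-13). Dlx1, a homeobox factor of GABAergic neurons, had 31.8, 28.5 and 45.8 CPM, against 3.38, 5.09 and 7.05 CPM (2.73, SE 0.517, edgeR adjusted p 3.63e-05). Neither gene overlapped between the strata. The Dlx1 levels rest on few UMIs, 10, 9 and 8 in Oprm1-high nuclei and 5, 7 and 9 in Oprm1-zero nuclei. Shisa6, an AMPA receptor partner, had 6.36, 102 and 74.5 CPM in Oprm1-high nuclei, against 4.73, 3.64 and 0 CPM in Oprm1-zero nuclei (4.12, SE 0.510). The large fold change of Shisa6 thus came from 2 of the 3 libraries. Clstn2, Sel1l3 and Tmem108 were also under 10 CPM in the Oprm1-high nuclei of urolithin A. Kl, the co-receptor Klotho, was higher by 3.04, Cdc14a by 3.31, Arhgap24 by 2.27 and the TRH receptor Trhr by 2.31. In the Oprm1-high nuclei of urolithin A, high anxiety and low anxiety, Kl had 8, 10 and 3 UMIs and Cdc14a 6, 15 and 9. Trhr had 10, 3 and 4 UMIs there, so these fold changes are not read as sizes. The calcium channel Cacna1g (2.79) passed the edgeR test too. It did not meet both limits set for named genes, at least 20 CPM and 1 sign in all libraries.

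Lists of striosome and matrix genes were set beside this. Of 12 tested striosome genes 2 were higher, Khdrbs3 (1.35) and Nr4a1 (1.52), neither with the same sign in every library, and 0 lower; the median was 0.40 beside 0.006 over all genes. Of 13 matrix genes, 4 were lower and 1 higher, with a median of -0.55. Mef2c, a transcription factor, had 50.9, 76.1 and 63.0 CPM in Oprm1-high nuclei, against 156, 178 and 143 CPM in Oprm1-zero nuclei (-1.37, SE 0.205, edgeR adjusted p 4.02e-08), and Brinp3 had 50.9, 69.8 and 28.6 CPM, against 143, 113 and 159 CPM (-1.37). Sgk1 (-0.89) and Epha4 (-0.68) were the other lower matrix genes and Astn2 (0.78) the higher one.

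Trophic genes included 6 of 17 higher, among them Fgfr1 (1.86), Erbb4 (1.42) and Ntrk2 (0.49), and 1 lower, Nrg1 (-0.52). Cadherins divided into 6 higher and 5 lower of 31, with Cdh10 at 0.95 and Cdh18 at 0.87, and with Pcdh11x at -1.71 and Pcdh19 at -1.89. Cartpt, a peptide precursor of the shell, was higher by 0.79, Dlk1 by 1.29 and Pde4b by 0.98. Ust (-1.63) and Itpk1 (-1.39) were lower. Cldn11 (-2.07) and Mal (-1.51), both myelin genes, were lower too, as was Plpp3 (-1.99). Without the nuclei that held markers of another class Plpp3 was at -1.60 (edgeR adjusted p 0.331) and Trhr at 2.18 (adjusted p 0.119), while Cldn11 and Mal did not pass the filter on low counts.

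**Figure D3:**
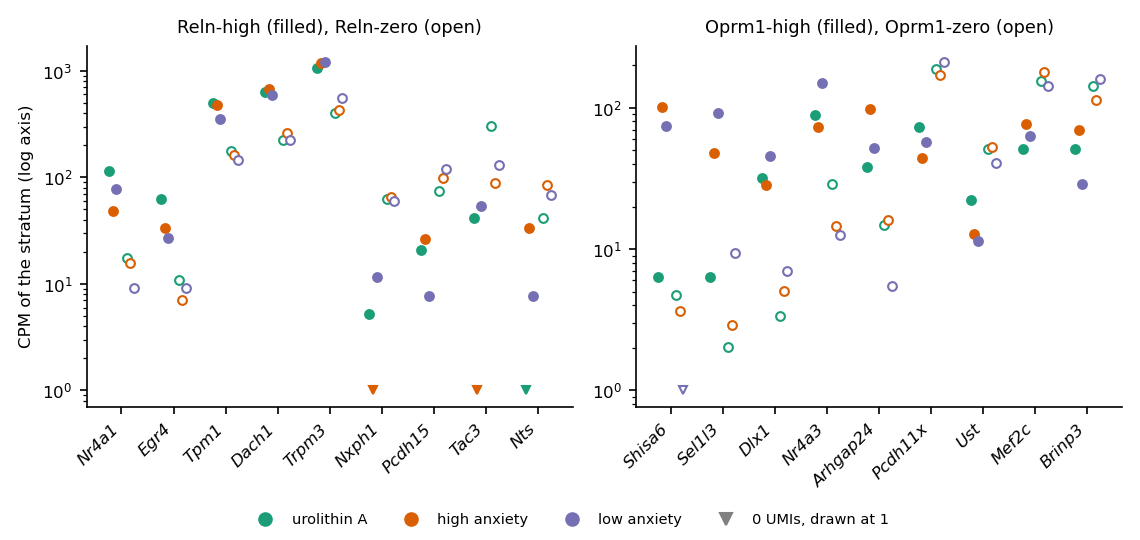
Level of named genes (CPM of the stratum, log axis) in Reln-high (filled) and Reln-zero (open) D1 nuclei on the left, and in Oprm1-high (filled) and Oprm1-zero (open) D1 nuclei on the right, 1 point per library, with 0 UMIs drawn as a triangle at 1. Filled and open points separate for Nr4a1 (48.8 CPM or more in Reln-high, 17.4 CPM or less in Reln-zero), while the urolithin A point of Shisa6 in Oprm1-high nuclei lies at 6.36 CPM.

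The groups of rats were then compared within the D1 nuclei by summed UMIs. A gene was measured with at least 100 UMIs in 1 of the 2 libraries, and was counted as higher or lower past 1.5-fold. Urolithin A over high anxiety asks what differed with the treatment, and high anxiety over low anxiety what differed with the behavioural class. The high anxiety library is in both comparisons. Library, pool and group cannot be told apart in either. The ratios in D2 nuclei of Tac3, Prex2, Chrm5, Trafd1, Myo16, Npat, Garnl3, Slco6b1, RGD1359290, Sytl5 and Rhbdl1 rest on fewer UMIs than the minimum.

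In urolithin A over high anxiety, 36 of 3961 genes were higher (0.909%) and 40 lower (1.01%), with a median log2 ratio of 0.01. Tac3 had 242, 59.7 and 113 CPM in urolithin A, high anxiety and low anxiety, a log2 ratio of 2.02 (1.70 to 2.34). In D2 nuclei the Tac3 ratio was -0.51 (-1.04 to 0.01). At least 5 Tac3 UMIs were held by 36, 7 and 15 D1 nuclei, and no single nucleus held more than 24 of the 434 UMIs in urolithin A. Chrm5, the muscarinic M5 receptor, had 81.8, 33.1 and 42.0 CPM (1.31, 0.85 to 1.78), with -0.11 (-0.84 to 0.62) in D2 nuclei. For both genes the urolithin A level was the highest of the 3 libraries and the high anxiety level the lowest.

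Chga, a granin of secretory granules, had 346, 189 and 247 CPM (0.87, 0.67 to 1.07), with 0.66 in D2 nuclei. Pde1a had 556, 311 and 381 CPM (0.84, 0.68 to 0.99), and Gnai1, an inhibitory G protein subunit, 163, 95.7 and 116 CPM (0.76, 0.48 to 1.05, with 0.87 in D2 nuclei). The sign of these 3 was the same in both classes. Prex2 (1.38), Trafd1 (0.78) and Myo16 (0.76) were the other named genes on the higher side, and for Trafd1 the D2 ratio was -0.60.

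Kremen1 had 50.7, 98.1 and 68.9 CPM in urolithin A, high anxiety and low anxiety (-0.95, -1.34 to -0.58), with -1.01 in D2 nuclei. Fstl5, a follistatin-like protein, had 65.1, 128 and 104 CPM (-0.97), with -0.21 in D2 nuclei, and Brinp2 57.3, 116 and 90.9 CPM (-1.02), with -0.28. Prkd1, a diacylglycerol-regulated kinase (-0.95), Cntn6, a contactin (-0.92), Nts (-0.89), the histone gene regulator Npat (-0.88) and Garnl3 (-0.87) were also lower. Garnl3 stood at 0.93 in D2 nuclei. The intervals of Garnl3 in the classes, -1.32 to -0.43 in D1 nuclei and 0.35 to 1.53 in D2 nuclei, did not overlap, and the difference was not tested.

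In high anxiety over low anxiety, 95 of 3711 genes were higher (2.56%) and 60 lower (1.62%), with a median of 0.02. Slco6b1, an organic anion transporter gene, had 53.4, 63.2 and 16.5 CPM in urolithin A, high anxiety and low anxiety (1.94, 1.29 to 2.64), with 0.70 in D2 nuclei. Ctnna3, an alpha-catenin, had 372, 476 and 173 CPM (1.46, 1.26 to 1.67), and Myo3a, a motor protein with a kinase domain, 101, 98.7 and 39.3 CPM (1.33, 0.89 to 1.79). In D2 nuclei these were at 1.30 and 1.39. In each of the 3 genes the low anxiety level was the one apart.

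Gm17606 (1.60), RGD1359290 (1.51), Trim39 (1.40), Rpl8-ps7 (1.29) and the growth-cone protein Dpysl3 (1.28) were also higher in high anxiety. Rpl8-ps7 carries the name of a ribosomal protein pseudogene, so reads may be shared with near-identical copies. Rbm3, a cold-inducible RNA-binding protein, had 124, 112 and 223 CPM (-0.999, -1.27 to -0.74), with -0.81 in D2 nuclei. Mast4 (-1.19), the inositol synthesis enzyme Isyna1 (-1.06), Acap3 (-0.99), Sytl5 (-0.98) and Rhbdl1 (-0.98) were the other named genes on the lower side. Mast4 was at -2.43 in D2 nuclei and Sytl5 at 0.00.

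**Figure D4:**
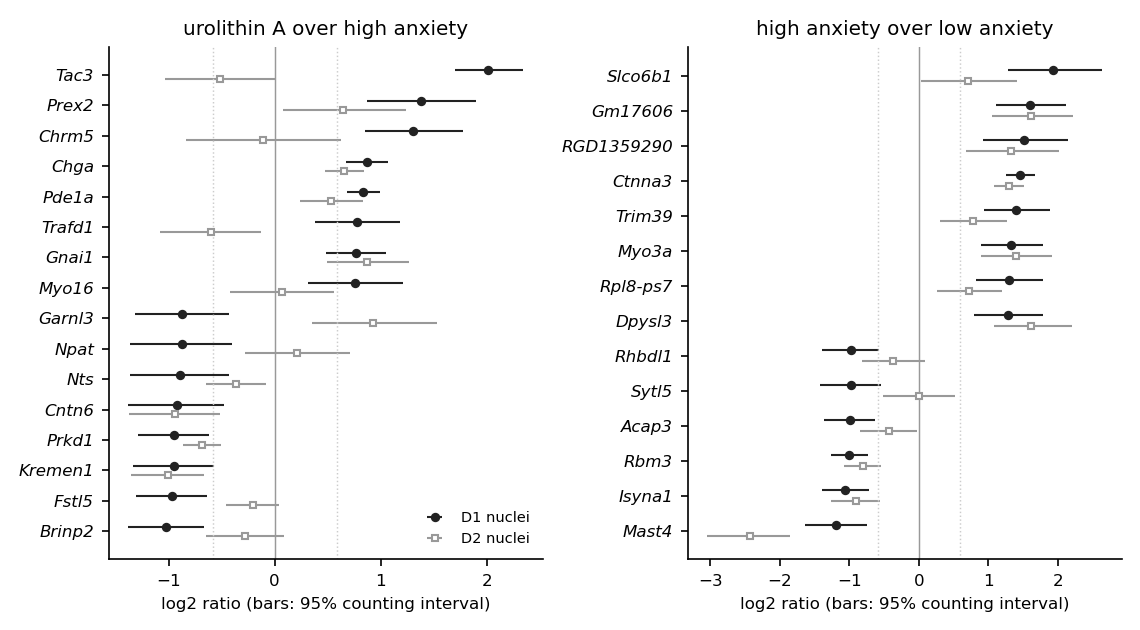
Log2 ratio of summed UMIs (x axis) with 95% counting intervals, in D1 nuclei (filled) and D2 nuclei (open), for the named genes of urolithin A over high anxiety (left) and high anxiety over low anxiety (right); dotted lines mark 1.5-fold. Tac3 (2.02 in D1, -0.51 in D2) and Chrm5 (1.31 and -0.11) lie apart by class, while Ctnna3 (1.46 and 1.30) and Kremen1 (-0.95 and -1.01) lie together; genes carried by single nuclei are not drawn.

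The largest ratios of all belonged to genes carried by 1 or 2 nuclei. Vip had 178 UMIs in high anxiety, all in 1 nucleus, against 1 in low anxiety and 0 in urolithin A. Npy had 368, 3 and 275 UMIs in urolithin A, high anxiety and low anxiety, of which 356 and 261 lay in 1 nucleus each of urolithin A and low anxiety. Sst had 149, 9 and 170 UMIs, with 130 and 157 in 1 nucleus each. Ctss, a microglial protease, and Ptgds were others. Without the nuclei that held markers of another class, the high anxiety over low anxiety log2 ratio of Ctss was -0.38, against 2.57 with them, and that of Ptgds -0.25, against -1.82.

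How far the D2 nuclei passed the same limits was counted over genes measured in both classes. In urolithin A over high anxiety, of 3523 such genes, 22 were higher in D1 nuclei and 70 in D2 nuclei, with 5 in both, or 22.7% of the D1 genes and 7.14% of the D2 genes. Lower were 30 in D1 nuclei and 26 in D2 nuclei, with 7 in both, or 23.3% and 26.9% of each list. In high anxiety over low anxiety, of 3171 genes, 71 were higher in D1 nuclei and 69 in D2 nuclei, with 41 in both, or 57.7% and 59.4% of each list. Lower were 37 in D1 nuclei and 57 in D2 nuclei, with 22 in both, or 59.5% and 38.6%. Of all 3961 genes measured in D1 nuclei, 0.909% were higher and 1.01% lower in urolithin A over high anxiety. In high anxiety over low anxiety these shares were 2.56% and 1.62% of 3711 genes. They are not over the genes measured in both classes. The D2 counts to set beside the shares of D1 genes are 70 higher and 26 lower of 3523 genes, and 69 and 57 of 3171. Both classes of a group come from the same library, so their lists are not independent, and the overlap was not tested.

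Gene lists were counted past a log2 ratio of 0.32 in either direction, a limit that 7.83% of all measured genes passed upward and 6.99% downward in urolithin A over high anxiety, and 11.2% and 8.08% in high anxiety over low anxiety. Of the DARPP-32 cascade, 0 of 23 measured genes were past it in urolithin A over high anxiety, with a median of -0.002. Of 26 genes shared by medium spiny neurons, 0 were higher and 4 lower, led by the formin Inf2 with 94.1, 147 and 156 CPM (-0.65, -0.94 to -0.36). Of 8 GABA genes 1 was lower, the chloride importer Slc12a2 with 55.1, 88.6 and 86.1 CPM (-0.69, -1.07 to -0.31). Rasgrp2, an activator of Rap1 downstream of dopamine, had 105, 174 and 121 CPM, with -0.73 in urolithin A over high anxiety and 0.53 in high anxiety over low anxiety.

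Of 5 measured accumbens shell genes, 3 were higher in urolithin A over high anxiety, among them Hap1 with 57.3, 35.5 and 55.8 CPM (0.69, 0.22 to 1.18), and 1, Nts, was lower. Of 12 phosphodiesterases, 2 were higher, with Pde1a first, and 1 lower. Of 38 splicing regulators 1 was higher and 0 lower.

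In high anxiety over low anxiety, Erbb4 had 346, 451 and 234 CPM in urolithin A, high anxiety and low anxiety (0.95, 0.76 to 1.14), 1 of 2 trophic genes past the limit among 11. Akap5, which anchors protein kinase A at synapses, had 215, 238 and 146 CPM (0.71, 0.46 to 0.95), 1 of 3 higher genes of the DARPP-32 cascade. The microtubule protein Map1a had 149, 174 and 86.8 CPM (1.01, 0.70 to 1.32), on a list with 2 of 28 higher, 2 lower and a median of 0.08. The proteasome subunit Psma5 had 50.7, 66.8 and 33.1 CPM (1.01, 0.51 to 1.53). Of 10 measured proteasome subunits 2 were higher and 0 lower, and the median was -0.14, opposite in sign to Psma5. Each of the 4 genes was lowest in low anxiety.

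Of 37 splicing regulators, 6 were lower and 2 higher in high anxiety over low anxiety, with Srsf5 at 192, 167 and 277 CPM (-0.73, -0.95 to -0.51). Of 11 mitochondrial transcripts 7 were higher and 0 lower. The mitochondrial share of all D1 UMIs was 1.09%, 1.06% and 0.839% in urolithin A, high anxiety and low anxiety. In D2 nuclei it was 1.20%, 0.878% and 0.701%, and over all nuclei 1.29%, 1.11% and 1.05%. In oligodendrocytes it was 1.54%, 1.67% and 1.84%, with low anxiety the highest. The difference was thus not particular to D1 nuclei, and the source of mitochondrial transcripts in the nuclei was not tested. Atp6ap1, an accessory subunit of the vacuolar ATPase, had 180, 125 and 193 CPM, with -0.63 in high anxiety over low anxiety and 0.53 in urolithin A over high anxiety. Reln had 185, 207 and 267 CPM, with -0.36 (-0.58 to -0.15) in high anxiety over low anxiety and -0.17 (-0.39 to 0.05) in urolithin A over high anxiety. The intervals of Chrm4 included 0 in both comparisons, with -0.38 to 0.27 in high anxiety over low anxiety and -0.23 to 0.39 in urolithin A over high anxiety. Those of Oprm1, -0.15 to 0.64 and -0.31 to 0.39 in the same order, did so too.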

How the data were processed

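Nuclei came from 3 libraries made with the Chromium 3′ v3.1 kit. The deposited matrices hold counts of UMIs per gene and barcode, which the authors obtained from Cell Ranger 7.1.0 (per the file headers) and, per the submitters' processing notes, the build mRatBN7.2. The sources used here do not say whether ambient RNA was subtracted. The tables list 23098 features. The nucleus filter asked for 500 or more genes and for mitochondrial UMIs of 5% or less. No doublet caller was run; deep nuclei and nuclei with markers of another class were left out as alternatives. The members and gene lists were chosen with earlier results of these data known; 629 of 654 list entries matched.

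CPM are the UMIs of a class in 1 library, summed and divided by their total. Ratios between libraries, 1 per group, have exact conditional Clopper-Pearson 95% intervals and no test; PCR and nuclei add error these do not cover. Contrasts within libraries used edgeR 4.0.16 (glmQLFit, glmQLFTest, filterByExpr, TMM) in R 4.3.3 with library as a block, since both sums come from the same library; an SE is the log2 fold change over the square root of F. P-values were adjusted over all genes tested by Benjamini-Hochberg. Rule genes were left out of the contrasts with D2 and Drd3-type nuclei, and the splitting gene out of its own split. In the Reln and Oprm1 splits the rule genes were kept among the genes tested. The 3 libraries differ in group, and a p-value does not by itself show that a gene had the same sign in all of them. Npy, for example, passed in the Oprm1 split with different signs between libraries. The fits were tested on simulated data with known changes. Of 2-fold changes, 84% were recovered for D1 over D2, 81% for D1 over Drd3-type, 57% for the Reln split and 69% for the Oprm1 split. Of 1.5-fold changes, 42%, 40%, 21% and 28% were recovered in the same order. A gene that did not pass is therefore not shown to be unchanged. Named genes are the 10 highest and 10 lowest per comparison with a symbol, and for tests at least 20 CPM and 1 sign in all libraries; list members and variable genes were named by rules of their own. Not every gene these rules pick is named, and some are not reported here. DESeq2 1.42.0 and other filters were tried as alternatives. Figures used matplotlib 3.10.9 and counts pandas 2.3.3, scipy 1.17.1 and numpy 2.4.6 in python 3.11.15.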

Additional observations from a re-analysis of the deposited data

Results flagged for a closer look

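Cst3, which encodes the protease inhibitor cystatin C, went in opposite directions in the D1 and D2 nuclei in urolithin A over high anxiety, past 1.5-fold in both. In D1 nuclei it had 134 CPM in urolithin A, against 241 in high anxiety, with 209 in low anxiety, a log2 ratio of -0.85 (-1.09 to -0.62). In D2 nuclei it had 278 CPM in urolithin A, against 123 in high anxiety, with 277 in low anxiety, a log2 ratio of 1.18 (0.93 to 1.43). Single nuclei held many of these UMIs: the highest nucleus had 13, 90 and 25 of the 240, 408 and 303 UMIs in D1 nuclei, and 139, 9 and 90 of the 446, 183 and 324 UMIs in D2 nuclei, in urolithin A, high anxiety and low anxiety. The difference between the classes was not tested.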

How the results depend on the processing

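The limits are 1 library per group, 214 to 246 D1 nuclei per library and genes of few UMIs. No paired analysis was possible because each group of rats has 1 library; the replicate block used is the library that both classes come from. With no replicate block, D1 over D2 gave 135 higher and 123 lower, D1 over Drd3-type 51 and 48, Reln-high over Reln-zero 22 lower (55 higher), and Oprm1-high over Oprm1-zero 35 and 29. DESeq2 gave 99 and 115, 34 and 39, 46 and 9, and 23 and 28 in the same order. The stricter nucleus filter (1000 genes or more, mitochondrial UMIs at 1% or less) gave 90 and 113 (Drd3-type), 9 and 5 (Reln) and 48 and 55 (Oprm1). Without a filter on low counts, 90 genes were lower in Reln-high nuclei. With 1 library left out in turn, D1 over D2 gave 151 to 238 higher and 138 to 238 lower, Drd3-type 110 to 166 and 143 to 177, Reln 66 to 89 and 46 to 54, and Oprm1 64 to 68 and 59 to 62. For urolithin A over high anxiety, a minimum of 200 UMIs gave 14 higher and 15 lower, thinned nuclei 23 and 16, and the stricter D1 rule 14 higher. For high anxiety over low anxiety these gave 35 and 20, 39 and 26, and 11 lower, and the stricter nucleus filter 55 and 37. That filter gave a D1 share of 8.45% in low anxiety, and the stricter D1 rule the shares 1.65%, 2.49% and 1.53% given above. Of 173 alternative values of 40 named ratios, 167 moved by less than their interval and 6 moved further, none of them past 0, among them Pde1a (0.59, stricter nucleus filter) and Prkd1 (-0.48, stricter D1 rule) in urolithin A over high anxiety. Named genes under the UMI minimum in an alternative have no value there. Of 657 alternative values of 80 named test results, 580 stayed past the threshold with their direction and 77 lost the call with their direction. A result without an adjusted p in an alternative has no value there and is not among the 657. DESeq2 gave a value for 48 of the 80, of which 42 kept the call and 6 lost it. The cause of these changes was not tested.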
